A study of Caenorhabditis elegans with 20 samples.

Results

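The genes described here are 5 genes of GABA signalling in the nematode Caenorhabditis elegans, taken by name from the 18917 genes listed in the deposited tables. They are unc-25 (WBGene00006762), unc-46 (WBGene00006782), unc-47 (WBGene00006783), unc-49 (WBGene00006784) and snf-11 (WBGene00004910). They were named as known components of the pathway and not by a rule on measured values, though earlier results of these data were known.

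GABA is the main inhibitory transmitter of the worm's neuromuscular system: motor neurons that release it relax the body wall muscle on one side of the body while the other side contracts. unc-25 encodes glutamic acid decarboxylase, which makes GABA from glutamate. unc-47 encodes the vesicular transporter that loads GABA into synaptic vesicles, and unc-46 a membrane protein that sorts this transporter to the vesicles. unc-49 encodes subunits of the GABA-gated chloride channel that receives the signal at the neuromuscular junction. snf-11 encodes the plasma membrane transporter that takes GABA back up, known in GABA neurons and also in muscle.

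RNA was measured by translating ribosome affinity purification (TRAP), which pulls ribosomes of chosen cells out of a whole-animal lysate and sequences the messenger RNA they carry. The 5 strains were labelled muscle (JAC127), intestine (JAC382), neuronal (JAC126), serotonin (JAC433) and dopamine (JAC379), and each gave 2 TRAP libraries and 2 input libraries of RNA from whole animals, 20 libraries in all. Animals of all strains were kept at 22 °C and harvested as L4 larvae, 46 to 48 h after L1 release. The labels give no promoter, transgene or further genotype for the strains, so which neurons the neuronal strain covers is not known here. Values are the authors' RPKM (reads per kilobase of gene and per mega reads), a scale that allows genes of different length to be set side by side. Every gene listed for a replicate reached 1 RPKM in its TRAP or its input library. Under this listing rule, a gene with TRAP or input under 1 RPKM was listed only through the other. The rule thus fixed the direction of its difference in that replicate. The level of a gene that is not listed is not known here.

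Depth in listed genes was lowest in neuronal input replicate 1, at 4.46 M reads (M for mega), and highest in dopamine input replicate 1, at 239.7 M. Muscle and neuronal TRAP carried their labelled markers: the summed RPKM of 10 body wall muscle genes was 125374 and 117428 in muscle TRAP against 14047 and 9493 in its input, and that of 10 general neuronal genes was 14820 and 6180 in neuronal TRAP against 470.5 and 102.3 in its input. Intestine TRAP held 11629 and 14862 RPKM of 10 intestine markers against 5116 and 4064 in its input. In dopamine replicate 2 the 4 dopamine neuron markers summed to 23.3 RPKM in TRAP against 39.2 in input, and its muscle markers summed to 49504 RPKM in TRAP against 5594 in TRAP replicate 1. In serotonin replicate 2 the 4 serotonin neuron markers summed to 36.4 RPKM in TRAP against 39.8 in input. In replicate 1 the markers of each subtype summed to 135.1 RPKM against 31.4 in serotonin and 90.6 against 25.9 in dopamine. The intestine markers summed to 8159 and 7876 RPKM in serotonin TRAP against 4245 and 5309 in input. In dopamine TRAP they summed to 6228 and 2280 RPKM against 2627 and 4703. Among the inputs, muscle replicate 1 and neuronal replicate 2 stood low, with a median log2 deviation of -1.43 and -1.55 from the mean of the inputs over 9896 genes, while the other 8 lay between 0.07 and 0.78.

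unc-25, the gene of GABA synthesis, was the most abundant of the 5 genes in every library of the neuronal strain, and its level set neuronal TRAP apart from the other TRAP groups. It measured 612 and 503 RPKM in neuronal TRAP (replicates 1 and 2) and 6.78 and 4.34 RPKM in the input of that strain, which are 52 and 235 reads. These TRAP levels ranked 318th of 16147 and 296th of 14022 listed genes. Both TRAP libraries were about as high as each other and far above both inputs.

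In the other 4 strains unc-25 stayed low in TRAP. Muscle TRAP held 6.09 and 6.01 RPKM against 5.16 and 6.88 in input, so that the groups overlapped. Intestine TRAP held 6.49 and 2.37 RPKM against 13.9 and 13.4 in input. Serotonin TRAP held 3.89 and 5.23 RPKM against 14.9 and 12.3, and dopamine TRAP 4.86 and 4.77 RPKM against 18.7 and 12.7. In intestine, serotonin and dopamine, both TRAP libraries thus lay below both inputs. In the order of TRAP means, neuronal (557 RPKM) stood apart from muscle (6.05 RPKM), muscle stood just above dopamine (4.81 RPKM), and dopamine, serotonin and intestine overlapped.

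**Figure D1:**
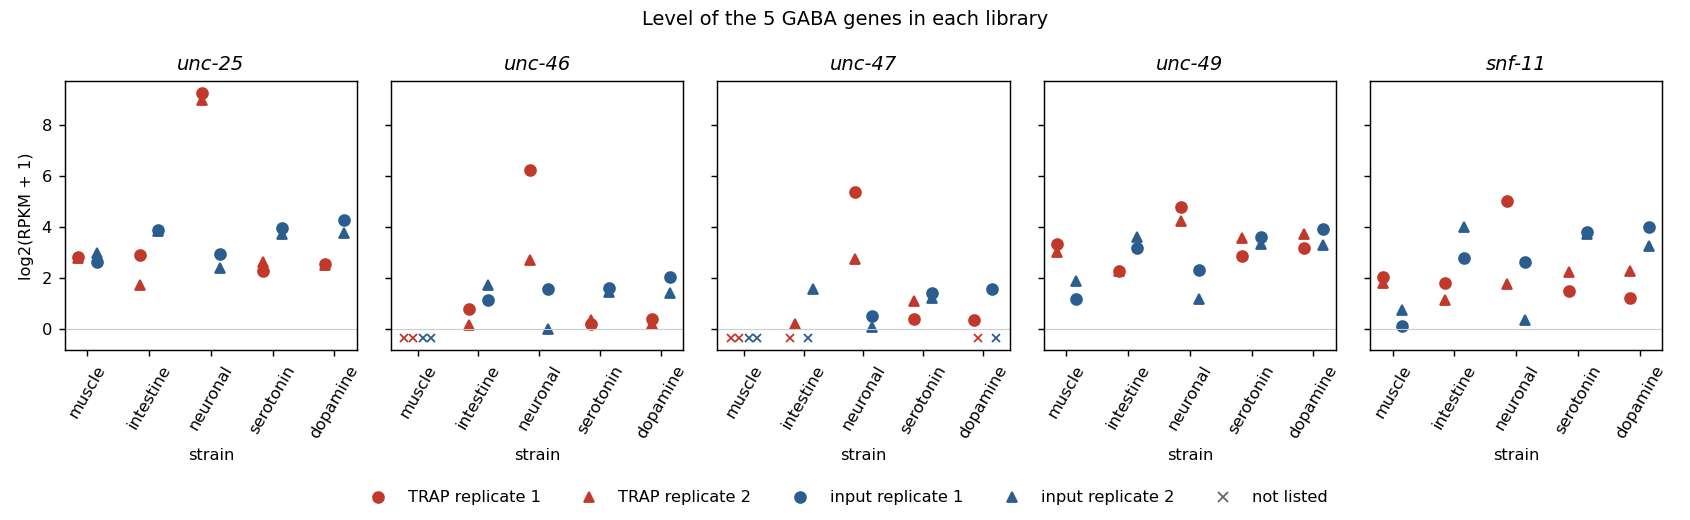
Level of each of the 5 genes, as log2(RPKM + 1), in the 20 libraries, with TRAP in red and input in blue for each strain, circles for replicate 1, triangles for replicate 2 and crosses where a gene is not listed. unc-25 reaches 612 and 503 RPKM in neuronal TRAP and stays at 6.49 RPKM or below in the other TRAP libraries, whereas unc-46, unc-47 and snf-11 are high in neuronal TRAP replicate 1 and much lower in replicate 2.

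The vesicle genes were rarer, and the 2 neuronal TRAP libraries differed on them. unc-47, the vesicular GABA transporter, measured 40.5 and 5.83 RPKM in neuronal TRAP and 0.439 and 0.0622 RPKM in its input, where each value is 3 reads. unc-46, which sorts that transporter, measured 76.0 and 5.58 RPKM in neuronal TRAP and 1.95 and 0 RPKM in its input, 9 and 0 reads. For both genes the lower TRAP library was still above the higher input. For unc-47 the listing rule fixed this, since both inputs were under 1 RPKM. The RPKM ratio of unc-25 to unc-46 was accordingly 8.05 in neuronal TRAP replicate 1 and 90.1 in replicate 2.

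Outside the neuronal strain the highest listed TRAP level of either vesicle gene was 1.15 RPKM, that of unc-47 in serotonin replicate 2. In muscle, neither was listed in either replicate. unc-46 measured 0.733 and 0.138 RPKM in intestine TRAP against 1.24 and 2.32 in input. It measured 0.168 and 0.292 RPKM in serotonin TRAP against 2.09 and 1.79, and 0.309 and 0.155 RPKM in dopamine TRAP against 3.15 and 1.68. TRAP lay below input for unc-46 in each of these 3 strains without overlap. Its TRAP levels there were all under 1 RPKM, so the listing rule fixed this direction. unc-47 measured 0.317 and 1.15 RPKM in serotonin TRAP against 1.71 and 1.32 in input. It was listed in intestine only for replicate 2, at 0.154 RPKM in TRAP and 1.999 in input, and in dopamine only for replicate 1, at 0.277 RPKM in TRAP and 2.02 in input.

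The difference between the neuronal TRAP replicates was not the same for all neuronal genes. The summed RPKM of 3 cholinergic neuron markers was 340.8 and 81.7, and the level of eat-4, the vesicular glutamate transporter, was 91.5 and 7.05. unc-30, the homeodomain factor that specifies GABA motor neurons, measured 37.8 and 37.98 RPKM, close to equal, as unc-25 nearly was. The part of these differences in the results on unc-46, unc-47 and snf-11 was not tested.

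Tests compared TRAP with input within each strain (n = 2 and 2) on log2(RPKM + 1), with limma fitted across all genes that were listed in both replicates and averaged at least 1 RPKM, and with Benjamini-Hochberg adjustment. Changes on this scale understate those of genes near 1 RPKM. In the neuronal strain 3 of the 5 genes rose, against 16.8% of the 13435 genes tested called higher. unc-25 was higher in TRAP by 6.43 ± 0.99 log2 units (SE; limma adjusted p = 3.12e-08), the 28th largest change. unc-47 was higher by 3.77 ± 1.12 (limma adjusted p = 0.00838) and unc-46 by 3.71 ± 1.28 (limma adjusted p = 0.0252). The listing rule fixed the direction of unc-47 in both replicates, and that of unc-46 in replicate 2, where its input was 0. The median change of all tested genes was 0.81.

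These calls differ in how firmly they stand. limma pooled the spread of this comparison completely over genes of like level, so that disagreement between a gene's own replicates does not enter its error. unc-25 stayed called without any 1 of the 4 libraries, with changes of 6.16 to 6.70, and with relative log expression (RLE) scaling, a library scaling that moves the median of all genes to -0.09, at 5.29 ± 0.71 (limma adjusted p = 0.0209). With that scaling unc-47 was at 3.22 (limma adjusted p = 0.0672) and unc-46 at 3.34 (limma adjusted p = 0.121), so that 1 of the 5 genes rose, against 10.3% of all tested. With unlisted genes set to 0 and no minimum, unc-25 passed (limma adjusted p = 0.00263), and unc-47 (0.0643) and unc-46 (0.101) did not. Without neuronal TRAP replicate 1 the change of unc-46 was 1.94 (limma adjusted p = 0.661), without replicate 2 it was 5.48 (0.332), and without input replicate 1 or 2 it was 4.49 (0.0678) or 2.93 (0.284). For unc-47 the changes were 2.47 (limma adjusted p = 0.0355) and 5.07 (0.0456) without TRAP replicate 1 or 2, and 3.99 (0.0543) and 3.55 (0.155) without input replicate 1 or 2. A count test on reads recovered from the deposited columns (edgeR's quasi-likelihood test) called no gene in this comparison, with 3965 genes at an unadjusted p under 0.05. Its adjusted p was 0.0557 for unc-25, with a change of 5.44.

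unc-49, the receptor, was likewise highest in neuronal TRAP. It measured 26.6 and 18.1 RPKM there and 4.002 and 1.27 RPKM in the input, 34 and 76 reads, so both TRAP libraries were above both inputs. The change of 2.77 ± 1.33 log2 units did not pass (limma adjusted p = 0.158). It passed only without input replicate 1, at 3.34 (limma adjusted p = 0.0265), not without input replicate 2, at 2.20 (0.138).

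In muscle, the tissue in which the receptor is known to act, unc-49 measured 9.17 and 7.10 RPKM in TRAP and 1.29 and 2.69 RPKM in input, without overlap. In limma the median change of all genes tested in muscle was -0.56. The unc-49 change of 1.64 ± 1.14 did not pass (limma adjusted p = 0.606; edgeR adjusted p = 0.0775 at 2.71). Without muscle input replicate 1, which stood low for most genes, it was 1.30 (limma adjusted p = 0.199).

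The muscle TRAP level of unc-49 lay within the range of other strains. It measured 6.35 and 10.9 RPKM in serotonin TRAP against 11.4 and 9.26 in input, and 8.14 and 12.4 RPKM in dopamine TRAP against 14.1 and 8.79 in input, so that TRAP and input overlapped in both. Intestine TRAP was the lowest, at 3.88 RPKM in both replicates, against 8.05 and 11.1 in input. In the order of TRAP means, neuronal (22.3 RPKM) stood apart, dopamine (10.3), serotonin (8.61) and muscle (8.13 RPKM) overlapped, and intestine (3.88 RPKM) stood apart below them. The muscle input (1.29 and 2.69 RPKM) was also below the inputs of intestine, serotonin and dopamine, which held 8.05 to 14.1 RPKM.

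snf-11, the GABA reuptake transporter, was also above input in both muscle TRAP libraries. It measured 3.13 and 2.53 RPKM against 0.0942 and 0.673 in input, 6 and 109 reads. Its muscle change of 1.496 ± 0.57 log2 units did not pass (limma adjusted p = 0.196), at 1.19 (0.0814) without input replicate 1, whereas edgeR called it higher, at 3.96 (edgeR adjusted p = 0.0468), in a test that called 2.85% of the genes higher. In limma 0 of the 3 genes tested in muscle were called higher, against 1.1% of the 10048 genes tested, with 1151 genes at an unadjusted p under 0.05. Both TRAP libraries lay above both inputs for unc-49 and snf-11 but not for unc-25, that is for 2 of 3 genes against 13.2% of all genes tested. For snf-11 the listing rule fixed this direction, since both of its muscle inputs were under 1 RPKM. Of the 10 general neuronal markers, 7 and 8 were listed in the muscle replicates, with summed levels of 224.9 and 313 RPKM in TRAP and 130.1 and 309 RPKM in input. The 3 cholinergic markers and eat-4 were not listed there. The part of neuronal RNA in the muscle values of unc-49 and snf-11 was not tested.

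In neuronal TRAP snf-11 measured 31.7 and 2.45 RPKM against 5.29 and 0.2998 in input, 50 and 20 reads. TRAP replicate 2 lay below input replicate 1, so the groups overlapped, and the change of 1.89 ± 1.23 did not pass (limma adjusted p = 0.369). Its size moved with every library: it was 0.27 without TRAP replicate 1, 3.51 without TRAP replicate 2, 3.03 without input replicate 1 and 0.76 without input replicate 2. In the TRAP order for snf-11 every group overlapped its neighbour: neuronal (17.1 RPKM), muscle (2.83), serotonin (2.81), dopamine (2.57) and intestine (1.87 RPKM).

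In the other 3 strains snf-11 lay below input. Intestine TRAP held 2.52 and 1.21 RPKM against 5.94 and 15.3 in input, serotonin TRAP 1.83 and 3.80 RPKM against 13.3 and 12.3, and dopamine TRAP 1.31 and 3.82 RPKM against 14.99 and 8.54. Both TRAP libraries lay below both inputs in each strain. In intestine this held for all 4 genes tested, against 56.5% of all tested genes, in serotonin for 4 of 5 (not unc-49), against 41.3%, and in dopamine for 3 of 4 (not unc-49), against 43%. These counts include unc-46 in each strain, where the listing rule fixed its direction. In intestine snf-11 fell by 1.93 ± 0.59 (limma adjusted p = 0.0334), 1 of the 4 genes tested there against 5.34% of all 14051 tested genes called lower. This call was lost with RLE scaling, at -1.30 (limma adjusted p = 0.278), a setting that called no gene in intestine (2150 at an unadjusted p under 0.05), and without TRAP replicate 1 (0.0618), TRAP replicate 2 (0.761) or input replicate 2 (0.289). It was also lost with a pseudocount of 0.1 (0.0602), with unlisted genes set to 0 (0.134), at a minimum of 5 RPKM (0.119) and with edgeR (0.228). In bulk samples such as these inputs, fewer cells of a type and less RNA per cell cannot be told apart.

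**Figure D2:**
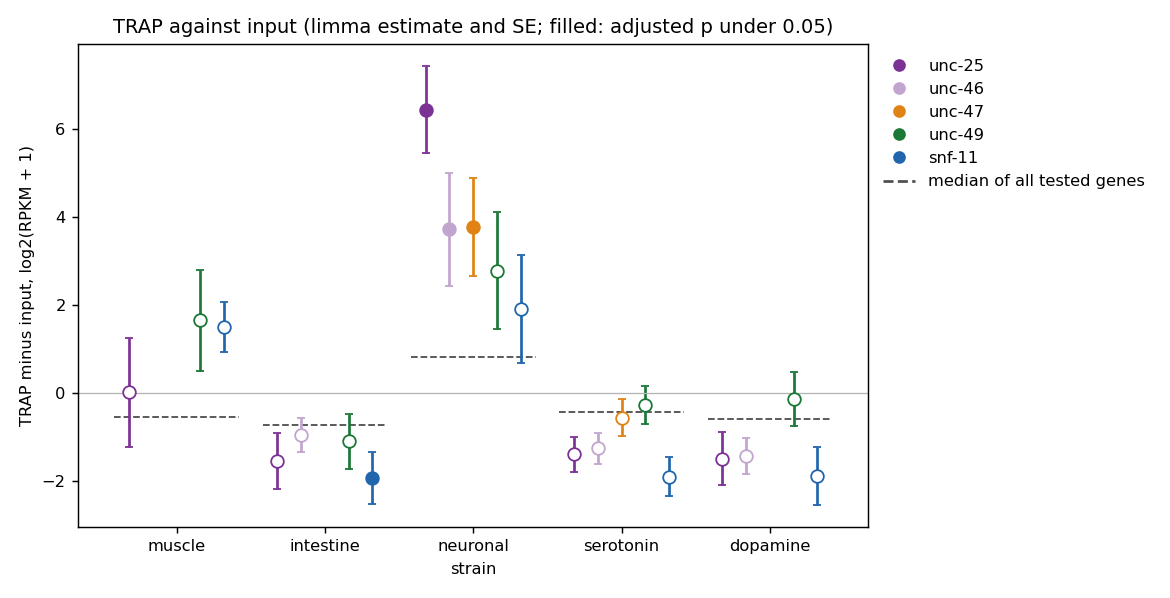
Change from input to TRAP in log2(RPKM + 1) for each gene and strain, as the limma estimate with its SE, filled where the adjusted p was under 0.05, with the dashed line at the median change of all tested genes. The filled points are unc-25 (6.43), unc-46 (3.71) and unc-47 (3.77) in the neuronal strain and snf-11 (-1.93) in intestine, and unc-49 and snf-11 lie above the median line in muscle without passing.

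In serotonin and dopamine the test without pairing called no gene (4034 and 4015 genes at an unadjusted p under 0.05), and edgeR called none either (3344 and 3354). TRAP and input of a replicate are paired, and blocking on the replicate number called 3 of 5 genes lower in serotonin, against 29% of all tested genes. These were snf-11 at -1.90 (limma with block, adjusted p = 0.00769), unc-25 at -1.40 (0.0154) and unc-46 at -1.26 (0.0419). For unc-46 the listing rule fixed the direction. unc-47 stood at -0.57 (0.311) and unc-49 at -0.27 (0.561). The same fit called 3 of 4 genes lower in dopamine, against 30.5% of all tested genes.

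The dopamine decreases were in the same 3 genes: unc-46 at -1.44 (limma with block, adjusted p = 0.000418), snf-11 at -1.89 (0.00306) and unc-25 at -1.497 (0.0246), while unc-49 stood at -0.14 (0.865). Here too the listing rule fixed the direction for unc-46. Disagreement between a gene's own replicates does not enter its error in the blocked dopamine and intestine fits. In intestine the block added unc-25, at -1.54 (limma with block, adjusted p = 0.0224), to snf-11 (0.00363), which makes 2 of 4 genes against 20.9%. Without the block and without dopamine TRAP replicate 2, the library with high muscle markers, the changes were -1.49 for unc-25, -1.35 for unc-46, -2.42 for snf-11 and -0.41 for unc-49. Without serotonin TRAP replicate 2, again without the block, they were -1.57 for unc-25, -1.33 for unc-46, -2.28 for snf-11 and -0.62 for unc-49. Without dopamine input replicate 2, unc-46 was called in dopamine, at -1.76 (limma adjusted p = 0.0484). The blocked fit cannot be repeated without a library, since 1 pair remains. Median changes of all tested genes were -0.44 in serotonin and -0.60 in dopamine, and RLE scaling turned the change of unc-49 to 0.083 and 0.43 in these strains.

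The contrast between the presynaptic genes and the receptor and reuptake transporter was tested as the difference between the neuronal and the muscle change. unc-25 differed by 6.41 ± 1.18 log2 units, with 6.43 in neuronal and 0.02 in muscle (limma adjusted p = 0.0535; with the replicate block 2.59e-05). In limma 0 of the 3 genes tested were called, against 0.03% of the 10001 tested genes called higher, and with the block 1 of 3, against 3.99%. The blocked fit pooled the spread completely over genes of like level. With RLE scaling the difference of unc-25 was 4.996 (limma adjusted p = 0.0401; 0.73% of all genes higher). Without neuronal input replicate 1 or 2 it was 6.68 (0.00177) or 6.14 (0.0158), and without muscle input replicate 1 or 2 it was 6.59 (0.0355) or 6.24 (0.0325). It did not pass without any 1 of the 4 TRAP libraries, at 6.27 to 6.55 (limma adjusted p = 0.133 to 0.437), with a pseudocount of 0.1 (0.0694), with unlisted genes set to 0 (0.0658), at a minimum of 5 RPKM (0.0535) or in edgeR, at 5.13 (edgeR adjusted p = 0.0938).

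Over all tested genes the median difference between the neuronal and the muscle change was 1.26. For unc-49 the difference was 1.13 ± 1.33 (limma adjusted p = 0.698) and for snf-11 0.40 ± 1.46 (0.871), neither called with the block (0.612 and 0.807). Both turned under RLE scaling, to -0.22 and -0.68. unc-46 and unc-47 are not listed in muscle, so of the presynaptic genes only unc-25 could be compared. With unlisted genes set to 0, their muscle change was 0 by that setting. The values of 3.71 (limma adjusted p = 0.332) and 3.77 (0.163) then only repeat the neuronal change. For the receptor and the transporter the design thus could not tell the neuronal from the muscle change, and none of these 4 changes had passed in limma by itself.

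**Figure D3:**
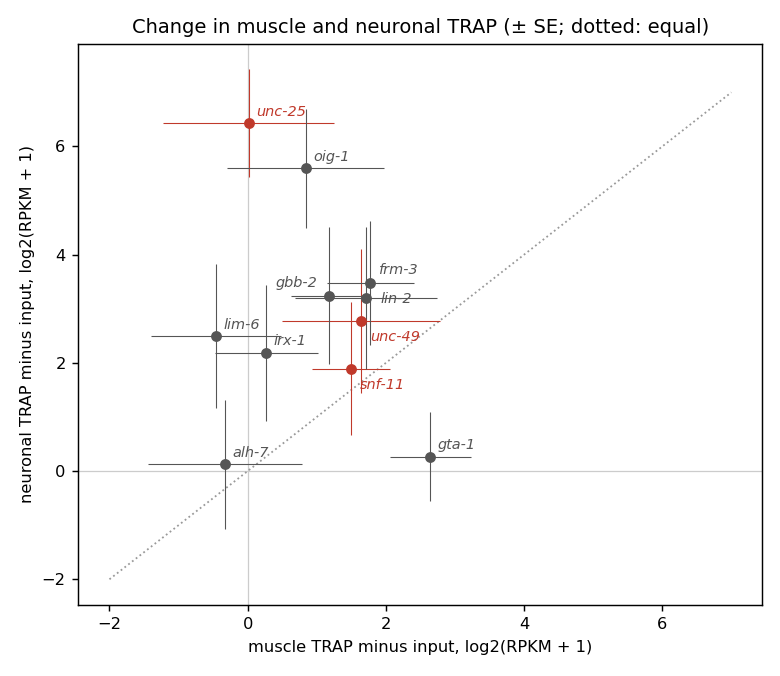
Change from input to TRAP in muscle (horizontal) and in the neuronal strain (vertical), both in log2(RPKM + 1) with SE, for the 11 genes tested in both: 3 of the 5 main genes in red and 8 other GABA genes in grey, with a dotted line of equal change. unc-25 lies at 0.02 and 6.43, unc-49 at 1.64 and 2.77, snf-11 at 1.496 and 1.89, and gta-1 lies at 2.64 in muscle and 0.27 in neuronal.

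The neuronal change was also set against those of serotonin and dopamine, comparisons that share the 4 neuronal libraries. The median difference of all tested genes was 1.30 against serotonin and 1.43 against dopamine. The listing rule fixed the serotonin and dopamine direction of unc-46 and the neuronal direction of unc-47. Against serotonin, 3 of 5 genes differed, against 9.12% of all tested genes called higher: unc-25 by 7.83 ± 0.98 (limma adjusted p = 0.00542), unc-46 by 4.97 ± 1.37 (0.0438) and unc-47 by 4.34 ± 1.06 (0.028). unc-49 differed by 3.04 ± 1.09 (0.107) and snf-11 by 3.80 ± 1.52 (0.147), and both passed with the block (0.0432 and 0.00422), where 19.9% of all genes were called higher. Against dopamine, 2 of 4 genes differed, against 10.5% of all tested genes called higher: unc-25 by 7.93 ± 1.09 (limma adjusted p = 0.00304) and unc-46 by 5.15 ± 1.31 (0.0219). There snf-11 was at 3.78 ± 1.502 (0.132; with the block 0.00509, where 19.4% were called higher) and unc-49 at 2.91 ± 1.21 (0.149; with the block 0.0769). Both blocked fits pooled the spread completely over genes of like level, so disagreement between a gene's own replicates does not enter its error. Leaving out a neuronal library changed the calls made without the block in both directions. Without input replicate 2 the calls of unc-46 (0.183) and unc-47 (0.118) against serotonin and of unc-46 against dopamine (0.126) were lost. Without input replicate 1 unc-49 passed against serotonin (0.0136) and dopamine (0.0193), as did snf-11 (0.0481 and 0.036), and without TRAP replicate 2 snf-11 passed against both (0.0413 and 0.0234).

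The rest of the pathway was followed with a list of 20 genes, of which 19 were tested in the neuronal strain. There 12 rose and 0 fell, against 16.8% of all genes called higher, and the list's median change was 3.24 against 0.81 for all genes. With RLE scaling 9 rose, against 10.3%, with unlisted genes set to 0 4 of 20 rose, against 5.7%, and edgeR called 0 of 19, as it called no gene. Without neuronal input replicate 2, which stood low, 3 of 19 rose, against 3.36% of all genes: unc-30 (limma adjusted p = 0.0442), tab-1 (0.0445) and oig-1 (0.0442). Without input replicate 1 it was 14 of 19, against 30.1%, without TRAP replicate 1 3 of 18, against 3.94%, and without TRAP replicate 2 7 of 19, against 8.98%. Neuronal TRAP was above both inputs in both libraries for 17 of the 19, against 43% of all tested genes, and for 4 of the 5 main genes. Both neuronal inputs were under 1 RPKM for exp-1, gab-1, lgc-35, lgc-37, lgc-38, unc-30, tab-1, unc-55 and frm-3, and for unc-47. For these genes the listing rule fixed the direction.

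Among the other receptors, the listing rule fixed an upward direction for exp-1, gab-1, lgc-35, lgc-37 and lgc-38, whose neuronal inputs were under 1 RPKM. With that limit, 6 of 7 tested rose, against 16.8% of all genes called higher. With RLE scaling it was 3 of 7, against 10.3%, namely lgc-38, gab-1 and exp-1, and it was 0 of 7 in edgeR, 0 of 8 with unlisted genes set to 0, and 0 of 7 without neuronal input replicate 2. lgc-38, a GABA-A-like channel subunit, measured 24.7 and 10.2 RPKM in neuronal TRAP against 0.959 and 0.0388 in input and rose by 3.57 ± 1.17 (limma adjusted p = 0.0171). gab-1, a subunit of an ionotropic GABA receptor, measured 17.95 and 6.62 RPKM against 0.256 and 0 and rose by 3.42 ± 0.97 (0.00577). exp-1, the excitatory GABA-gated channel of the enteric muscles, measured 13.1 and 6.60 RPKM against 0.395 and 0.056 and rose by 3.09 ± 0.95 (0.0103). lgc-35, lgc-37 and gbb-1, the last a metabotropic GABA-B receptor subunit, rose too, while its partner gbb-2, at 35.97 and 8.29 RPKM against 2.58 and 0.073, did not pass (limma adjusted p = 0.0579). lgc-36 was listed only in neuronal replicate 1, at 3.09 RPKM in TRAP. Like unc-49, none of these receptors was called in muscle, where only gbb-2 was listed in both replicates, at 2.38 and 2.29 RPKM in TRAP, with 0.153 and 0.867 in its input.

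Of the 5 transcription factors of GABA neurons, 3 rose in neuronal TRAP, against 16.8% of all genes called higher. For these 3 the listing rule fixed the direction, and edgeR called 0 of the 5. unc-30 measured 37.8 and 37.98 RPKM against 0.186 and 0.238 in input and rose by 5.004 ± 1.30 (limma adjusted p = 0.00317). tab-1, a homeodomain gene, measured 26.98 and 22.4 RPKM against 0 and 0.367 and rose by 4.45 ± 1.22 (0.00456). unc-55, a nuclear receptor gene that acts in the ventral class of D motor neurons, measured 22.2 and 12.1 RPKM against 0 and 0 and rose by 4.12 ± 1.06 (0.00295), a size that depends on the pseudocount because both inputs were at 0. The 2 not called, lim-6 and irx-1, are homeobox genes that were at 21.6 and 21.1 and at 10.7 and 12.6 RPKM in neuronal TRAP. Of the 5 synapse organisers, oig-1, an immunoglobulin domain protein gene, measured 316 and 151 RPKM against 4.49 and 2.76 and rose most, by 5.59 ± 1.10 (2.95e-05). madd-4, a secreted organiser of neuromuscular synapses, measured 158 and 14.8 RPKM against 4.84 and 0.0857 and rose by 4.32 ± 1.31 (0.00956; with RLE scaling 0.0956). frm-3, a FERM domain protein gene, also rose, in a direction that the listing rule fixed.

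The 2 genes of GABA breakdown were not called in neuronal TRAP. gta-1, the GABA transaminase, measured 3206 and 1464 RPKM in muscle TRAP against 365 and 327 in input. It rose there by 2.64 ± 0.59 (limma adjusted p = 0.00112) and was the only one of the 8 listed pathway genes tested in muscle that limma called, against 1.1% of all tested genes called higher. It did not pass with RLE scaling, at 3.14 (limma adjusted p = 0.168), or in edgeR, at 3.11 (edgeR adjusted p = 0.266). Without muscle input replicate 1 it was 2.72 (limma adjusted p = 0.0167), and it did not pass without input replicate 2 (0.0561), TRAP replicate 1 (0.9999) or TRAP replicate 2 (0.0797). In neuronal TRAP gta-1 measured 197 and 299.8 RPKM against 210.6 and 193 in input, a change of 0.27 (limma adjusted p = 0.946), which RLE scaling turned to -0.94 (0.551). alh-7, a succinate semialdehyde dehydrogenase gene, was between 11.7 and 47.7 RPKM in all libraries and limma called it in none of the 5 strains.

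gta-1 was lower in TRAP of the neuron subtypes, with 101 and 169 RPKM in serotonin TRAP against 598 and 614 in input and 68.4 and 189.9 RPKM in dopamine TRAP against 997 and 449. With the replicate block it fell by 2.21 in serotonin (limma adjusted p = 0.00541; without the block 0.115) and by 2.54 in dopamine (0.000804; without the block 0.0998). The difference between its neuronal and muscle change was -2.38 ± 0.81 (limma adjusted p = 0.252; with the block 0.0233, where 0.84% of all genes were called lower). In the muscle strain edgeR called 2 of the 8 tested pathway genes higher, against 2.85% of all genes. These were frm-3 and lin-2 (edgeR adjusted p = 0.0398 and 0.0493), which limma did not call (limma adjusted p = 0.148 and 0.547). They stood at 4.04 and 3.25 and at 8.07 and 5.57 RPKM in TRAP. Their inputs were 0.128 and 0.618 and 0.678 and 2.30 RPKM. Both muscle inputs of frm-3 were under 1 RPKM, so the listing rule fixed its direction.

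**Figure D4:**
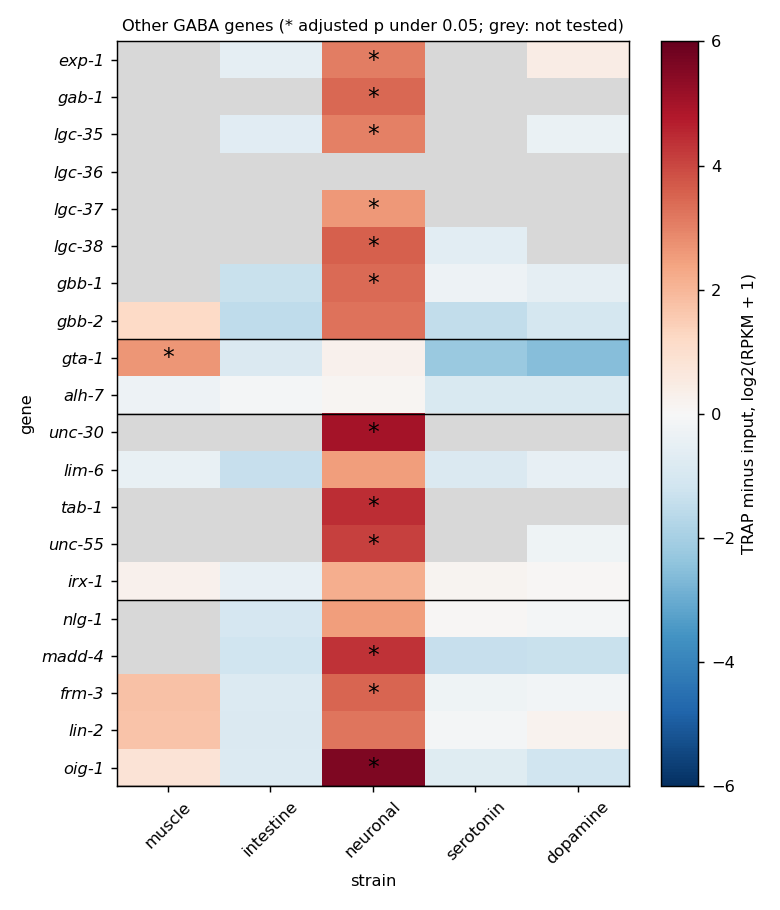
Change from input to TRAP in log2(RPKM + 1) for the 20 other GABA genes (rows, in blocks of receptors, breakdown enzymes, transcription factors and synapse organisers) in the 5 strains (columns), with stars at an adjusted p under 0.05 and grey where a gene was not tested. Stars fall on 12 genes in the neuronal column and on gta-1 in the muscle column.

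The authors' deposited table of neuronal enriched genes, 2370 genes long, holds unc-25 at a ratio of 65.3, unc-47 at 48.3 and unc-46 at 44.98. Neither unc-49 nor snf-11 is in it. The authors' deposited table of muscle enriched genes, 577 long, holds snf-11 at a ratio of 17.1, and from the pathway list frm-3 at 19.5, nlg-1, the neuroligin gene, at 15.3, and gta-1 at 8.47. unc-49 is not in it, with ratios of 6.84 and 4.91 for its muscle replicates in the authors' deposited table. These ratios are quotients of scaled signal columns and not of RPKM: for unc-25 in neuronal replicate 2 the authors' deposited table gives 32, whereas the RPKM ratio is 115.8.

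The genes whose levels most resembled each of the 5 were ranked by Pearson's r of log2(RPKM + 1) over the libraries in which the gene is listed, as a description. These libraries share the same high neuronal TRAP values and differ in depth. unc-25 was followed most closely by ins-14, an insulin-like gene (r = 0.976 over 20 libraries), T01C1.4 (0.973) and VM106R.1 (0.966). unc-46 was followed by eat-4 (0.987 over 16), madd-4 (0.985) and nlp-46, a neuropeptide-like gene (0.977). unc-47 was followed by acc-1, an acetylcholine-gated channel gene (0.991 over 12), mec-10, a touch channel gene (0.981), and ZK822.6 (0.980).

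The receptor and the transporter had other companions. unc-49 was followed by sto-5, a stomatin gene (0.972 over 20 libraries), dbl-1, a TGF-beta ligand gene (0.966), and unc-5, a netrin receptor gene (0.951). snf-11 was followed by cwn-1, a Wnt gene (0.963 over 20), aat-5, an amino acid transporter gene (0.952), and unc-29, a subunit gene of the muscle acetylcholine receptor (0.950). Among the 5 genes themselves, r was 0.968 for unc-46 with unc-47, 0.920 for unc-25 with unc-47 and 0.891 for unc-25 with unc-46. It was 0.774 for unc-49 with snf-11, and 0.651 and 0.513 for unc-25 with unc-49 and snf-11. For unc-47 with unc-49 and snf-11 it was 0.804 and 0.680, and for unc-46 with these it was 0.675 and 0.723. Pairs with unc-47 rest on 12 libraries, the other pairs with unc-46 on 16 and the rest on 20.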

How the data were processed

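The tools named in the submitters' processing notes are STAR, an aligner, and HTSeq, a read counter. Their versions and the genome build are not given in the sources used here. Per the file headers, the deposited tables hold counts, RPKM and a TRAP over input ratio for each of 2 biological replicates. From the values it was inferred that 1 deposited counts column of a replicate holds reads plus 1 and the other such counts times a factor, a scaled signal; the authors' deposited ratio is the quotient of these columns, and RPKM, the authors' normalized value, was used for every main test. The recovered reads rest on that inference. Libraries held 4.46 to 239.7 M reads, so levels in neuronal input, with 0 to 235 reads per main gene, are least precise; counting error aside, n = 2 limits every group.

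limma 3.58.1 (R 4.3.3) with a mean-variance trend was fitted to log2(RPKM + 1) for the genes present in both replicate tables whose mean reached 1 RPKM, in 5 comparisons within strains and 3 between them, without a replicate block, at a Benjamini-Hochberg adjusted p of 0.05. Scripts were tested on simulated data. Prior degrees of freedom were 3.03 (serotonin), 5.97 (dopamine), 568 (intestine) and infinite (muscle, neuronal). The file headers set TRAP and input of a replicate side by side, and their deviations correlated at 0.608, 0.603, 0.451, 0.679 and 0.516 (muscle, intestine, neuronal, serotonin, dopamine), so TRAP and input were taken as paired by replicate. Blocked results were known by then. A p-value here reflects only how these libraries vary.

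Alternatives were a pseudocount of 0.1, RLE scaling, unlisted genes set to 0 with no minimum, a minimum of 5 RPKM, the replicate block, each library left out, and, added after seeing the data, edgeR 4.0.16 on the recovered reads and the reading of the muscle and neuronal fits for the 20 other genes. The 5 main genes and the 20 others were always named if described, and the 3 most correlated genes were named for each main gene among those reaching 10 RPKM. Members and lists were chosen with earlier results of these data known. No sequences or coordinates were used here.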

Additional observations from a re-analysis of the deposited data

Results flagged for a closer look

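5 results were picked out because the change from input to TRAP differed between strains by a test of the difference itself (limma, adjusted over all genes tested). The neuronal change exceeded the serotonin change by 7.83 log2 units for unc-25 (adjusted p = 0.00542), by 4.97 for unc-46 (0.0438) and by 4.34 for unc-47 (0.028). It exceeded the dopamine change by 7.93 for unc-25 (0.00304) and by 5.15 for unc-46 (0.0219). In each case neuronal TRAP was above both neuronal inputs in both libraries, while TRAP of the neuron subtype was below both of its inputs. The listing rule fixed the subtype direction for unc-46, whose TRAP levels there were under 1 RPKM. It fixed the neuronal direction for unc-47, whose neuronal inputs were under 1 RPKM. Of the 5 results, the 2 for unc-25 passed under every alternative run. The 3 for unc-46 and unc-47 did not pass with RLE scaling, at 4.58 and 3.88 against serotonin and 4.67 for unc-46 against dopamine, nor without neuronal input replicate 2, at 4.19, 4.12 and 4.37. Against serotonin, unc-46 also failed with a pseudocount of 0.1, with unlisted genes set to 0, at a minimum of 5 RPKM, with edgeR and without any 1 of the 4 serotonin libraries. Against serotonin, unc-47 also failed with unlisted genes set to 0 and without serotonin TRAP replicate 1 or either serotonin input. Against dopamine, unc-46 also failed with unlisted genes set to 0, with edgeR and without dopamine TRAP replicate 2.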

How the results depend on the processing

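Over the 8 comparisons, the tests of the 5 genes gave 368 values under alternatives. Direction and call held in 286, a call was lost in 42 and gained in 25, and 15 changed sign. The sign changes were all among uncalled changes. With RLE scaling unc-49 turned to 0.083 in serotonin, 0.43 in dopamine and -0.22 for neuronal minus muscle, and snf-11 to -0.68 there. With edgeR these 4 values were 0.17, 0.48, -0.35 and -1.47, and the pseudocount of 0.1 turned snf-11 there to -0.29. Leaving out 1 library gave -0.16 to 0.19 for unc-25 in muscle, turned without input replicate 1, and -0.62 to 0.071 for unc-49 in serotonin, turned without TRAP replicate 1. It gave -0.45 to 0.18 for unc-49 in dopamine, turned without TRAP replicate 1 (0.14) and without input replicate 1 (0.18). It gave -1.23 to 2.02 for snf-11 in neuronal minus muscle, turned without neuronal TRAP replicate 1 (-1.23) and without neuronal input replicate 2 (-0.74). The cause was not tested.

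Counts of called genes moved as follows. Muscle (206) gave 89 with unlisted genes set to 0 and 757 with the replicate block, and the split of 111 higher and 95 lower became 288 and 15 with RLE scaling. Intestine (807) gave 399 with the pseudocount of 0.1, 0 with RLE scaling (2150 at an unadjusted p under 0.05), 112 with unlisted genes set to 0, 120 at 5 RPKM, 3252 with the block and 0 with edgeR (2207). Neuronal (2336) gave 1462 with RLE scaling, 968 with unlisted genes set to 0 and 0 with edgeR (3965). The block gave 5661 in serotonin and 5602 in dopamine, where 0 were called without it. Neuronal minus muscle (7) gave 158 with RLE scaling, 0 with unlisted genes set to 0 (2520), 483 with the block and 0 with edgeR (1106). Neuronal minus serotonin (1244) gave 806 with the pseudocount of 0.1, 674 with unlisted genes set to 0, 2794 with the block and 738 with edgeR. Neuronal minus dopamine (1336) gave 773 with unlisted genes set to 0, 2580 with the block and 805 with edgeR. The higher and lower calls of the last pair, 1161 and 83, and 1313 and 23, became 802 and 166, and 875 and 199, with RLE scaling. Leaving out 1 library gave 19 to 2004 in muscle, 55 to 1379 in intestine, 475 to 4159 in neuronal, 0 in serotonin, 0 to 842 in dopamine, 0 to 369 for neuronal minus muscle, 254 to 5530 for neuronal minus serotonin and 548 to 5169 for neuronal minus dopamine. The block changed no call of the 5 genes other than those given above. Depth limits unc-46 and unc-47 most, with 0 to 9 reads in neuronal input.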
